A study of Mus musculus with 196 samples.

Results

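The genes described here are 10 immediate early genes of mouse skin, Fos, Fosb, Jun, Junb, Egr1, Egr2, Atf3, Dusp1, Ier2 and Nr4a1, out of 18820 genes measured. They were listed by name, each by the probe set with the highest mean among those naming that gene alone, and each turned out to have exactly 1 such probe set. Expression was measured on arrays of skin from 100 mice aged 8 weeks, untreated and kept on standard chow. The mice came from a backcross: hybrid females, born to FVB/N mothers and Mus spretus fathers, were mated to FVB/N males, so each mouse carried its own mixture of FVB/N and Mus spretus alleles. The groups were non-anagen dorsal skin (85 arrays, 41 females and 44 males), anagen dorsal skin (14 arrays, 8 females and 6 males), anagen being the growth phase of the hair cycle, and tail skin (97 arrays, 48 females and 49 males). Dorsal skin had been shaved, and both tissues were snap frozen before RNA extraction. Both tissues were measured in 96 mice, 82 of them with non-anagen and 14 with anagen dorsal skin.

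Immediate early genes are transcribed within minutes of a stimulus, by factors that are already in the cell and are switched on by kinases, so no new protein is needed first. Their transcripts decay fast, and a level therefore reflects the recent past of the tissue. Fos, Fosb, Jun and Junb encode subunits of the AP-1 transcription factor, Egr1 and Egr2 zinc finger factors, and Atf3 a stress-induced factor of the ATF/CREB family. Nr4a1 encodes an orphan nuclear receptor, Dusp1 a phosphatase that switches off MAP kinases, and Ier2 a nuclear protein. In skin these genes are known to respond to wounding, ultraviolet light and growth factors, and in many tissues to dissection and handling. Whether handling had a part in any result was not tested.

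Promoters of 6 of the genes are shown. Each is the 250 bases before a transcription start in RefSeq (GRCm38.p6), written 5′ to 3′ on the strand of the gene. The windows are chr12:85473640-85473889 (plus strand) for Fos, chr17:26508473-26508722 (minus) for Dusp1, chr7:19310046-19310295 (minus) for Fosb, chr1:191183334-191183583 (minus) for Atf3, chr15:101266596-101266845 (plus) for 1 start of Nr4a1 and chr10:67537619-67537868 (plus) for 1 start of Egr2. Capitals mark TGACG, the core of the site that CREB and ATF factors bind, or its full form TGACGTCA, the Egr site GCGNGGGCG and the CArG box of serum response factor, each on either strand.
Fos: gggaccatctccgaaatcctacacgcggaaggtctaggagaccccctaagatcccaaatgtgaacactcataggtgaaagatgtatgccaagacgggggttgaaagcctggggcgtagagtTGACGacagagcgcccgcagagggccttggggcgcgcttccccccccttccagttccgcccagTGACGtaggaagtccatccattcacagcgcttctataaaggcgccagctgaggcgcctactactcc
Dusp1: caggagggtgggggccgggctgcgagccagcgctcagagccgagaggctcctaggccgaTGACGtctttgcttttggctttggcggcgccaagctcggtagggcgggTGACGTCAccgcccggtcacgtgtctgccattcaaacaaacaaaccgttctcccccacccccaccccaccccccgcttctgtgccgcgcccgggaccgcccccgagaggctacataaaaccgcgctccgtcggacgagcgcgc
Fosb: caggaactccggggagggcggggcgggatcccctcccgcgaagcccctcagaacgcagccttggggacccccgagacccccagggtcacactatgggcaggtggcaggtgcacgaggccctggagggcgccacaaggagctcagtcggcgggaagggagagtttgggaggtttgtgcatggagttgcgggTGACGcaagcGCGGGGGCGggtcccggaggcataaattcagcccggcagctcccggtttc
Atf3: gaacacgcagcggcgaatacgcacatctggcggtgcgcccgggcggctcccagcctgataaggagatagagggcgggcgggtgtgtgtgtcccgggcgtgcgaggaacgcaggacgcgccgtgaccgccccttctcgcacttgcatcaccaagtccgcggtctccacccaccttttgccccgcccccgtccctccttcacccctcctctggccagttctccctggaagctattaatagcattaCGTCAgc
Nr4a1: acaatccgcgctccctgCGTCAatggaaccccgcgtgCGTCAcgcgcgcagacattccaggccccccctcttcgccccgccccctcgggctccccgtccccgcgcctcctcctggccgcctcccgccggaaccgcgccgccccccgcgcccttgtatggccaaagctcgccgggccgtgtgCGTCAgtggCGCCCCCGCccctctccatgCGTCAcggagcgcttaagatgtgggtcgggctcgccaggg
Egr2: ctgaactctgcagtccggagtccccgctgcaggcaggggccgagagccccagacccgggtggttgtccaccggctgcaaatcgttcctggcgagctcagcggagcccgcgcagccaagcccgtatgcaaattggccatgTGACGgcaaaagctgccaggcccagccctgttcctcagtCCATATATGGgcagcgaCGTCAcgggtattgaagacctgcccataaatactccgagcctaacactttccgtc
TGACG stood before a start of 7 of the 8 members with a window (Fos, Fosb, Junb, Egr2, Atf3, Dusp1 and Nr4a1), against 19.8% of 27025 genes and 17.8% of 32851 windows. This core was picked after the sequences had been read. The full site TGACGTCA, which contains it, was found for Dusp1 alone, against 1.77% of genes. The CArG box was found for Egr2 alone, against 1.62% of genes, and the Egr site for Fosb and Nr4a1, against 5.33%. The AP-1 site TGANTCA was in none of these windows, against 7.82% of genes. Not shown are the windows of Junb, which held 1 TGACG, and of Jun, which held none of these sites. A further start of Egr2, also not shown, held none of them. A match says only that the letters are there, and no match says only that they are not in the window searched.

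The labelled tissues carried skin markers. Krt5, a keratin of the basal epidermis, was at a log2 level of 12.27 ± 0.19 (SD, n = 85) in non-anagen dorsal skin and 12.39 ± 0.12 (SD, n = 97) in tail skin. Krt25, of the inner root sheath of growing hair, was at 5.13 ± 0.51 (SD, n = 85) in non-anagen dorsal, 10.01 ± 2.06 (SD, n = 14) in anagen dorsal and 10.91 ± 0.93 (SD, n = 97) in tail skin. By the labels, batch 1 held 89 and batch 2 held 10 dorsal arrays, and batch 3 held 3 and batch 4 held 94 tail arrays, which means that the effect of tissue and that of batch cannot be told apart. The median over genes ran from 6.09 to 6.53 in dorsal arrays and from 6.23 to 6.7 in tail arrays. The 5 arrays least like their group, with a correlation of 0.9557 to 0.9714 with its median profile, were anagen dorsal skin of mice 1039 and 1083, non-anagen dorsal skin of mouse 1002, and tail skin of mice 1069 and 1081.

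In tail skin, 7 of the 10 genes were higher than in non-anagen dorsal skin and 2 were lower, at any size. With so many arrays most genes passed: 43.7% of all genes were called higher and 43.4% lower (limma, adjusted p under 0.05 over 18820 genes). The members' median difference was 0.455 on the log2 scale, against 0 over all genes. With genes of low signal left out, the median was 0.416 for 9 members and 0.236 over 10032 genes. A size of at least 1, a doubling, was reached by Fosb alone, where 3.94% of all genes were that much higher, and no member was that much lower, where 2.02% were. All differences in this and the following paragraphs are log2 differences of RMA values with their standard error.

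The Fos subunits of AP-1 were both higher in tail skin. Fosb was at 6.48 ± 0.77 (SD, n = 85) in non-anagen dorsal skin, from 5.18 to 8.67 with a median of 6.38. In tail skin Fosb was at 7.65 ± 1.06 (SD, n = 97), from 5.84 to 10.48 with a median of 7.42. The groups overlapped, with 78 of 97 tail arrays inside the dorsal range and 19 above it, and the difference was 1.17 (SE 0.135, limma adjusted p = 5.01e-15). Fos was at 6.44 ± 0.84 (SD, n = 85) in non-anagen dorsal skin, from 4.89 to 8.9 with a median of 6.28. In tail skin it was at 7.05 ± 0.91 (SD, n = 97), from 5.43 to 9.77 with a median of 6.9. Only 6 tail arrays exceeded the highest dorsal array, and the difference was 0.606 (SE 0.127, limma adjusted p = 5.29e-06). Within mice the tail array was the higher one in 65 of 82 mice for Fosb and in 57 of 82 for Fos.

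The Jun subunits differed from each other. Junb was at 7.8 ± 0.25 (SD, n = 85) in non-anagen dorsal skin, from 7.12 to 8.4 with a median of 7.8, and at 8.33 ± 0.21 (SD, n = 97) in tail skin, from 7.87 to 8.89 with a median of 8.31. Its groups were among the best separated: 52 of 85 dorsal arrays lay below the lowest tail array, and the tail was higher in 75 of 82 mice (difference 0.526, SE 0.035, limma adjusted p = 2.81e-33). Jun was at 9.7 ± 0.23 (SD, n = 85) in non-anagen dorsal skin, from 9.01 to 10.2 with a median of 9.72. In tail skin Jun was at 9.7 ± 0.21 (SD, n = 97), from 9.1 to 10.45 with a median of 9.69. The 2 groups covered nearly the same range, and the tail was higher in 42 of 82 mice (difference 0.005, SE 0.034, limma adjusted p = 0.899).

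Ier2 showed the smallest p-value of the set, at a low signal. Ier2 was at 5.63 ± 0.31 (SD, n = 85) in non-anagen dorsal skin, from 4.63 to 6.38 with a median of 5.68, and at 6.27 ± 0.25 (SD, n = 97) in tail skin, from 5.7 to 6.82 with a median of 6.26. The tail array was higher in 77 of 82 mice (difference 0.639, SE 0.041, limma adjusted p = 6e-35). Both means lay below 6.49, the median of all gene means, so a filter on low values left Ier2 out of the fit. Of the 9 members kept, 6 were higher and 2 lower. Among the 10032 genes kept, 6522 were called higher and 2387 lower by limma, a split near that of the members. Nr4a1 was at 6.61 ± 0.49 (SD, n = 85) in dorsal skin, from 5.7 to 7.92 with a median of 6.57, and at 7.11 ± 0.74 (SD, n = 97) in tail skin, from 5.76 to 9.2 with a median of 6.94. Most tail arrays lay in the dorsal range, but 16 exceeded it (difference 0.495, SE 0.094, limma adjusted p = 5.01e-07). Dusp1 was at 10.14 ± 0.47 (SD, n = 85) in dorsal skin, from 8.86 to 11.35 with a median of 10.1, and at 10.56 ± 0.5 (SD, n = 97) in tail skin, from 9.63 to 11.83 with a median of 10.44. Its difference was 0.416 (SE 0.072, limma adjusted p = 5.79e-08), with the tail higher in 56 of 82 mice.

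The other 3 genes encode transcription factors, and 2 of them were lower in tail skin. Atf3 was at 6.88 ± 0.55 (SD, n = 85) in non-anagen dorsal skin, from 5.92 to 8.77 with a median of 6.84. In tail skin Atf3 was at 6.45 ± 0.72 (SD, n = 97), from 5.29 to 8.8 with a median of 6.18. Tail skin thus had both the lower median and almost the same highest value, with 20 tail arrays below the lowest dorsal array (difference -0.437, SE 0.094, limma adjusted p = 9.12e-06). Egr2 was at 9.07 ± 0.33 (SD, n = 85) in dorsal skin, from 8.13 to 9.84 with a median of 9.08, and at 8.81 ± 0.26 (SD, n = 97) in tail skin, from 8.03 to 9.38 with a median of 8.8. The tail was the higher array in 20 of 82 mice for Egr2 (difference -0.258, SE 0.046, limma adjusted p = 1.32e-07) and in 24 of 82 for Atf3. Egr1 was at 8.64 ± 0.37 (SD, n = 85) in dorsal skin, from 7.66 to 9.56 with a median of 8.63, and at 8.86 ± 0.36 (SD, n = 97) in tail skin, from 8.07 to 10.07 with a median of 8.8. The Egr1 groups overlapped almost fully, and the difference was 0.223 (SE 0.054, limma adjusted p = 7.74e-05).

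**Figure D1:**
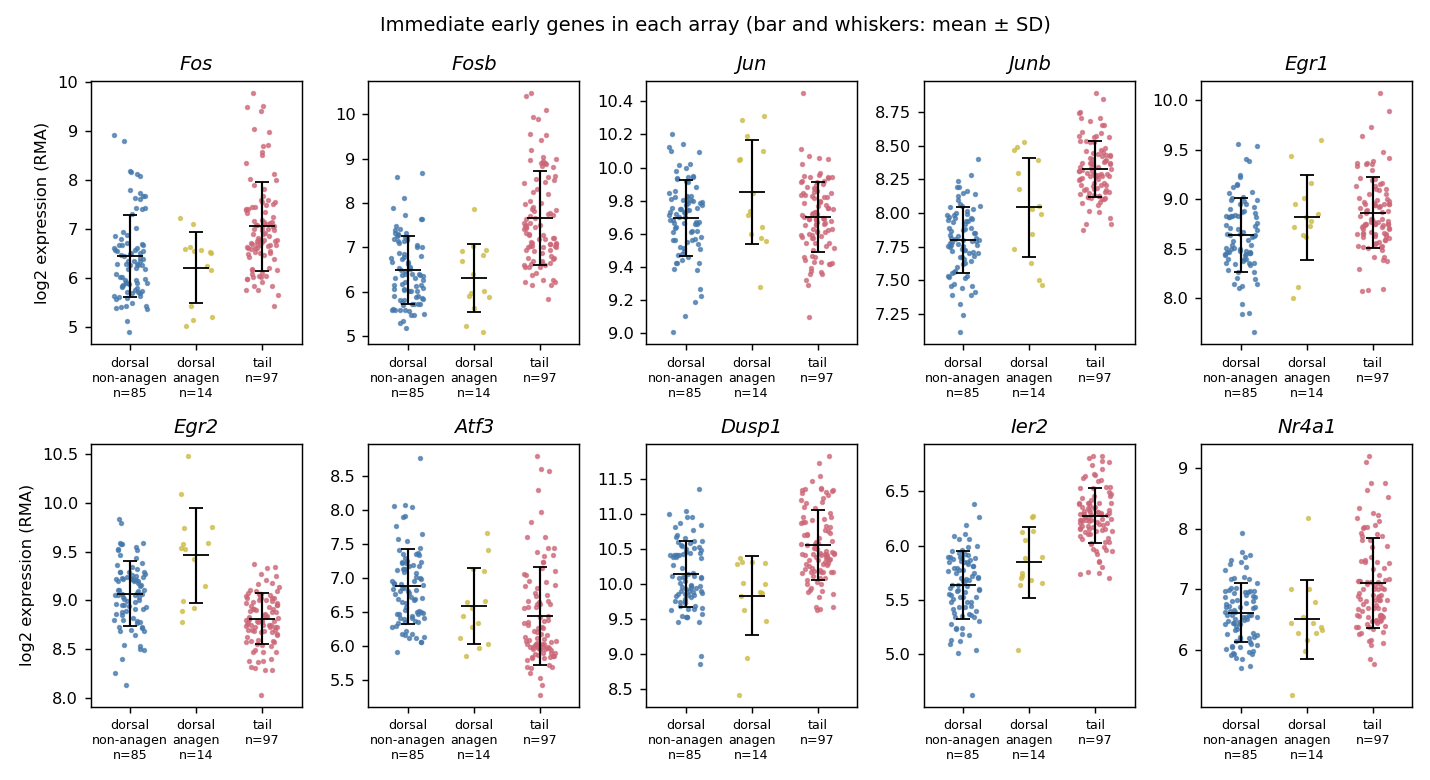
Log2 expression (RMA) of each immediate early gene on every array of non-anagen dorsal (n = 85), anagen dorsal (n = 14) and tail skin (n = 97); points are arrays, the bar and whiskers are the mean and SD, and each panel has its own scale. Fosb, Junb and Ier2 sit higher in tail skin, the Jun groups cover nearly the same range, and Fos, Fosb, Atf3 and Nr4a1 have long upper tails.

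How the arrays are scaled moved these differences. Shifting every array to the same median lowered the median difference of all genes to -0.206. Then 6 members were higher and 3 lower, where 5481 of 18820 genes were called higher and 11308 lower. Fosb fell to 0.96, Ier2 to 0.43, Fos to 0.40, Junb to 0.32, Nr4a1 to 0.29 and Dusp1 to 0.21, and all 6 were still called higher. Egr1 was no longer called under this scaling (0.02, limma adjusted p = 0.766), and Jun was called lower (-0.20, limma adjusted p = 1.8e-07). Egr2 and Atf3 moved further down, to -0.46 and -0.64. Quantile normalization gave Egr1 at -0.02 (limma adjusted p = 0.754) and Jun at -0.24 (limma adjusted p = 1.42e-11). Whether Jun and Egr1 were called as differing between the tissues therefore depended on the scaling. The direction of the other 8 genes did not in the scalings run.

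**Figure D2:**
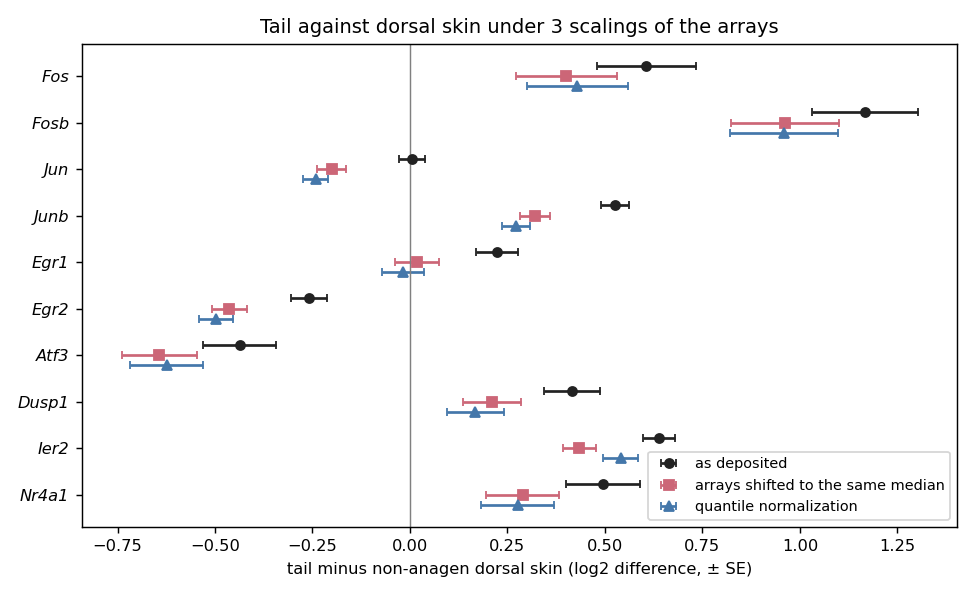
Tail minus non-anagen dorsal skin for each gene as a log2 difference with its standard error, for the deposited values, for arrays shifted to the same median and after quantile normalization. Both scalings move every gene down, Jun and Egr1 reach or cross 0, and Fosb, Ier2, Fos, Junb, Nr4a1 and Dusp1 stay above it.

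Among 39 other early response genes, 23 were higher and 10 lower in tail skin at any size, and 15 were higher and 17 lower once array medians had been set equal. The latter scaling shifted the whole array set downward in tail skin: limma then called 11308 of the 18820 measured genes lower and 5481 higher. Pim1, a survival kinase, was the single gene of that list past a size of 1 (1.28). Of 13 upstream kinases and promoter factors, 10 were higher and 2 lower, with Rps6ka5, a kinase that acts on chromatin at early genes, at 1.02. With array medians set equal, 6 of the 13 were higher and 4 lower, and 0 passed a size of 1. Cell type markers moved with the tissue as well: all 7 skeletal muscle markers and all 5 smooth muscle markers were lower in tail skin (median differences -2.21 and -3.02), and all 6 inner root sheath markers were higher (4.33). Of 6 keratinocyte stress markers 5 were higher (median 2.11), and of 6 leukocyte markers 4 were lower and 1 higher (median -1.34). The muscle gene Acta1 ran from 5.91 to 12.43 in non-anagen dorsal and from 5.45 to 11.2 in tail skin. The part of cell composition in the differences of the immediate early genes was not tested, and in whole skin fewer cells of a type and less RNA per cell cannot be told apart.

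Anagen dorsal skin had 3 of the 10 genes higher than non-anagen dorsal skin and none lower, where 5.56% of all genes were called higher and 6.16% lower (limma). Egr2 was at 9.46 ± 0.49 (SD, n = 14), from 8.77 to 10.49 with a median of 9.53, against 9.07 ± 0.33 (SD, n = 85), a difference of 0.382 (SE 0.091, limma adjusted p = 0.00123). Egr2 has a known role in hair follicle progenitors that form the shaft. Junb was at 8.04 ± 0.37 (SD, n = 14) against 7.8 ± 0.25 (SD, n = 85), a difference of 0.243 (SE 0.069, limma adjusted p = 0.00869). Without the 5 arrays least like their group the Junb difference was 0.22 with an adjusted p of 0.0527 in limma, and Jun, at 0.153 with an adjusted p of 0.132 in the full set, was then called (0.22, limma adjusted p = 0.0283). Ier2 differed by 0.228 (SE 0.081, limma adjusted p = 0.0488), and this call was lost without the 5 arrays (limma adjusted p = 0.1), without the sex term (0.0634), with shifted arrays (0.0699) and after quantile normalization (0.0586).

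The genes that varied most between mice did not pass the anagen test. The differences were -0.235 for Fos (limma adjusted p = 0.633), -0.187 for Fosb (0.746), -0.287 for Atf3 (0.357), -0.319 for Dusp1 (0.136) and -0.114 for Nr4a1 (0.781). Within the 14 mice with anagen dorsal skin, the tail was higher than the back in 14 for Dusp1, 13 for Fos, 13 for Fosb and 12 for Junb and Ier2. Egr2 was higher in the tail of 1 of these 14 mice. Atf3 was higher in the tail in 9 of the 14, with a mean difference of 0.27, against -0.51 in the 82 mice with non-anagen dorsal skin. The test of that change, the anagen effect in dorsal skin minus that in tail skin, gave -0.753 for Atf3 (SE 0.258, limma adjusted p = 0.0872) and -0.577 for Dusp1 (SE 0.2, limma adjusted p = 0.0921), where 3.41% of all genes were called. By limma 0 members passed, with 4 at an unadjusted p under 0.05.

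Tail skin, split by the hair cycle label of the same mouse's dorsal skin, showed 0 members and 0 genes called by limma (0% of all genes), with 3 members and 378 genes at an unadjusted p under 0.05. No member passed the test between the sexes. In non-anagen dorsal skin, where 18.7% of all genes were called by limma, 0 members were called and 0 had an unadjusted p under 0.05. In tail skin, where 1.06% were called by limma, 0 members were called and 2 had an unadjusted p under 0.05, Jun (-0.118, females minus males) and Ier2 (-0.147), with limma adjusted p = 0.243 and 0.258. The sex effect differed between the tissues in 0 members by limma, with 0 at an unadjusted p under 0.05, where 7.73% of all genes were called. In dorsal skin females had Fos at 6.56 ± 0.9 (SD, n = 41) and males at 6.32 ± 0.77 (SD, n = 44), and in tail skin the values were 7.05 ± 0.88 (SD, n = 48) and 7.04 ± 0.95 (SD, n = 49).

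The mice differed widely from one another in some of these genes. After adjustment for sex and batch, the SD of Fos over mice was 0.84 in dorsal and 0.91 in tail skin, above 99.1% and 99.3% of all genes, whose median SD was 0.28 and 0.21. Fosb stood at the 98.8 and 99.7 percentiles, Atf3 at 96.3 and 98.9, Nr4a1 at 94.5 and 98.9, and Dusp1 at 93.6 and 96.5. Jun and Junb varied no more than an ordinary gene, at the 22.1 and 31.1 percentiles in dorsal and 49.1 and 48 in tail skin. Of the AP-1 subunits, Fos and Fosb varied most.

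Within each tissue most of the genes rose and fell together from mouse to mouse. Over the 45 pairs the median Pearson correlation was 0.32 in non-anagen dorsal skin, from -0.18 to 0.82, and 43 pairs were above 0. In tail skin it was 0.49, from 0.1 to 0.9, and all 45 pairs were above 0. Correlations above 0.5 were found in 11 dorsal and 21 tail pairs. The same values over pairs of all genes are not given here. How far the members exceed ordinary pairs can therefore not be read from these counts. Shifting the arrays to the same median gave medians of 0.30 and 0.56, and leaving out dorsal batch 2 and tail batch 3 gave 0.34 and 0.49.

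Fos and Dusp1 were the tightest pair in dorsal skin. Their correlation over 85 mice was 0.82 (Spearman 0.83, permutation p = 1e-05 for both, the smallest that 100000 resamples can give) and 0.80 without the 2 arrays farthest from the Fos median. Over 97 tails it was 0.84 (Spearman 0.83, permutation p = 1e-05 for both) and 0.83 without the 2 farthest. Fosb and Atf3 were the tightest pair in tail skin, at 0.90 (Spearman 0.86, permutation p = 1e-05 for both, 0.88 without 2 arrays), and stood at 0.76 in dorsal skin (Spearman 0.74, permutation p = 1e-05 for both, 0.74 without 2 arrays). Fos and Fosb correlated at 0.73 in dorsal skin (Spearman 0.63, permutation p = 1e-05 for both, 0.68 without 2 arrays) and at 0.69 in tail skin (Spearman 0.62, permutation p = 1e-05 for both, 0.64 without 2 arrays). Egr1 and Egr2, the zinc finger pair, correlated at 0.56 in dorsal skin (Spearman 0.50, permutation p = 1e-05 for both, 0.54 without 2 arrays) and at 0.50 in tail skin (Spearman 0.55, permutation p = 1e-05 for both, 0.50 without 2 arrays).

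**Figure D3:**
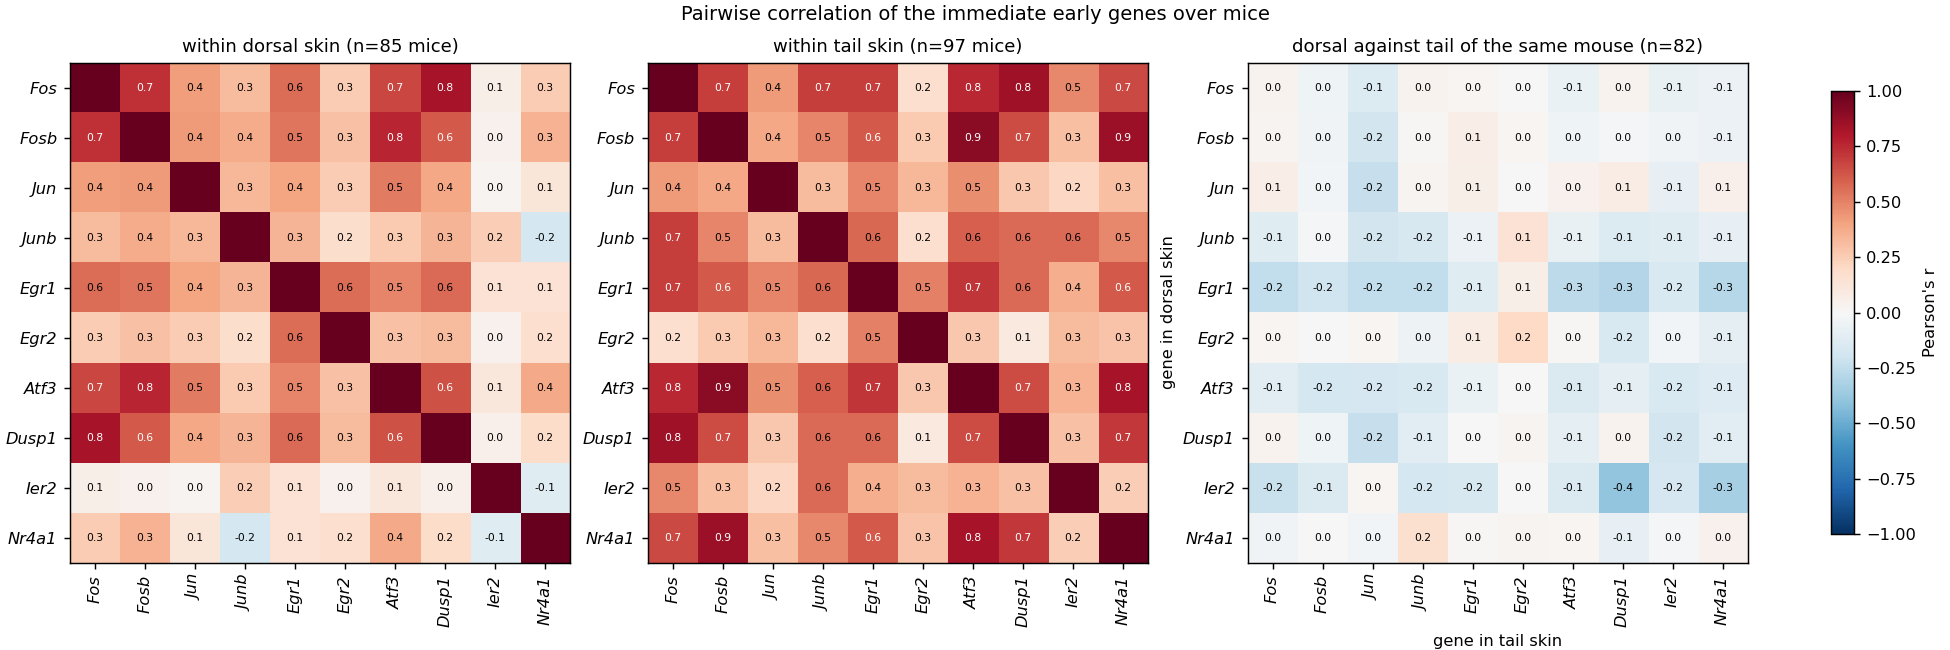
Pearson correlation of each pair of immediate early genes over mice, on values adjusted for sex and batch, within non-anagen dorsal skin (85 mice), within tail skin (97 mice) and between the dorsal (rows) and tail (columns) arrays of the same 82 mice. Most pairs within a tissue are red, with Ier2 and Nr4a1 pale in dorsal skin, and the panel between tissues holds no value above 0.20.

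Few of all genes rose with Fos. Taking the Fos level as a covariate, limma called 4 of the 9 other members as rising with Fos in dorsal skin, where 0.0691% of 18819 genes (13 genes) were called. They were Dusp1 (slope 0.466 log2 units per log2 unit of Fos, limma adjusted p = 5.07e-18), Fosb (0.664, 9.03e-12), Atf3 (0.441, 8.67e-09) and Egr1 (0.25, 7.67e-05). In tail skin 8 of the 9 were called, all but Egr2, where 0.361% of genes (68 genes) were. The tail slopes were 0.806 for Fosb, 0.596 for Atf3, 0.534 for Nr4a1, 0.456 for Dusp1, 0.271 for Egr1, 0.156 for Junb, 0.128 for Ier2 and 0.097 for Jun (limma adjusted p from 1.7e-23 to 0.00539). Without the tail arrays of mice 1069 and 1081, Jun was no longer called (0.074, limma adjusted p = 0.0705), which left 7 members where 0.335% of genes were called. After the shift to one common median the members called were 4 and 8 again. The genes called as rising then came to 7 in dorsal and 1608 in tail skin.

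Other early response genes rose with Fos too, by a list of 39. In dorsal skin 4 were called, the matrix proteins Ccn1 (slope 0.438, limma adjusted p = 5.96e-11) and Ccn2 (0.347, 0.00488), the NF-kappaB inhibitor Nfkbia (0.282, 1.28e-05) and the EGF receptor inhibitor Errfi1 (0.202, 0.0303). In tail skin 13 were called, with Ccn1 (0.302, limma adjusted p = 7.24e-10), Ptgs2, a prostaglandin synthase (0.246, 0.0266), Csrnp1, a nuclear protein (0.220, 1.83e-07), and Zfp36, which promotes the decay of AU-rich transcripts (0.215, 1.73e-16), and 10 without those 2 tail arrays. Of 13 upstream kinases and promoter factors 0 were called by limma in either tissue, with 3 in dorsal and 2 in tail skin at an unadjusted p under 0.05. Of 9 heat shock genes 0 were called as well, with 0 and 1 at that level. Glucocorticoid targets had 3 of 11 called in each, Mt1, Sgk1 and Errfi1 in dorsal and Errfi1, Sgk1 and Per1 in tail skin, and the dorsal 3 were lost with shifted arrays and after quantile normalization, and 1 was called within batches 1 and 4. Of 53 cell type markers 0 were called by limma with Fos in either tissue, but in dorsal skin 16 had an unadjusted p under 0.05, among them 5 of 5 keratinocyte and 4 of 5 adipocyte markers, against 4 of 53 in tail skin. The median slopes in dorsal skin were 0.06 for keratinocyte, -0.42 for skeletal muscle and -0.43 for adipocyte markers, against 0.01 over all genes. How many of all genes had an unadjusted p under 0.05 for the slope on Fos is not given here. The unadjusted counts of these lists thus have no background beside them. The part of cell composition in the covariation with Fos was not tested.

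Of the 8 genes most like the members as a group in each tissue, by correlation with their mean, 4 in dorsal and 5 in tail skin were on the list of other early response genes. In dorsal skin the 8 were Ccn1 (0.72), Palmd (0.62), Zfp36l2 (0.58), Spry1 (0.54), Rfx2 (0.53), Fosl2 (0.52), Zfp36 (0.52) and Nfkbia (0.51) over 85 arrays. In tail skin they were Hbegf (0.79), an EGF receptor ligand, Zfp36 (0.75), Ccn1 (0.73), Csrnp1 (0.65), Nfkbia (0.64), Sik1 (0.63), Mir23a (0.62) and Mir24-2 (0.61) over 97 arrays. Hbegf stood at 0.23 in dorsal skin, whereas Ccn1 was near the same value in both.

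Ier2 and Nr4a1 had the lowest correlations with the other members in dorsal skin. Ier2 correlated with the mean of the other 9 at 0.10 in dorsal and 0.46 in tail skin, and Nr4a1 at 0.22 and 0.76. Taking Ier2 as the covariate, limma called 0 of 9 members as rising in dorsal skin, with 1 at an unadjusted p under 0.05. Of all genes 2.51% were called as rising and 0.77% as falling. In tail skin 8 of 9 members were called as rising, where 25.1% of all genes were rising and 13.7% falling. Without mouse 1002, the non-anagen dorsal array among the 5 least like their group, the dorsal share of genes rising was 0.664%, with 0 members called. Without mice 1069 and 1081 the tail share of genes rising was 19.4%, with 9 members called, and quantile normalization gave 6 members. Nr4a1 and Fosb correlated at 0.34 in dorsal skin (Spearman 0.29, permutation p = 0.00125 and 0.00623, 0.29 without 2 arrays) and at 0.86 in tail skin (Spearman 0.84, permutation p = 1e-05 for both, 0.85 without 2 arrays). Nr4a1 and Junb went from -0.18 in dorsal skin (Spearman -0.15, permutation p = 0.108 and 0.181, -0.13 without 2 arrays) to 0.48 in tail skin (Spearman 0.42, permutation p = 2e-05 for both, 0.43 without 2 arrays). The difference between tissues was tested as an interaction, a comparison added after the data had been seen. The slope of Nr4a1 on Junb was steeper in tail skin by 2.06 (limma adjusted p = 0.00116, with 0.0531% of genes called) and that on Fosb by 0.37 (limma adjusted p = 0.0105, with 0.0213% called). In all, 11 of 90 slopes of one member on another differed, 9 of them with Nr4a1 on one side. The 90 slopes are 45 pairs fitted in both directions, so they are not independent. Nr4a1 with Fosb, with Junb and with Atf3 differed in both directions and is counted in each. The share of all genes whose slope differed was 1.23% with Fos as the covariate, 15.4% with Jun, 10.3% with Egr1, 0.898% with Egr2, 0.0319% with Atf3, 14.6% with Dusp1, 1.29% with Ier2 and 5.65% with Nr4a1.

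Between the 2 tissues of a mouse no member passed the test of correlation. For the same gene in dorsal and tail skin of 82 mice the median correlation was -0.08, from -0.23 to 0.20, and for the 90 pairs of different genes it was -0.05, from -0.39 to 0.16. By p-values adjusted over all genes 0 of 10 members correlated between tissues in either direction, with 1 member at an unadjusted permutation p under 0.05, where 8.76% of all genes (1649 genes) were called positive and 0.0638% negative. The median over all genes was 0.08. With arrays rescaled, batches left out, anagen mice added or the 5 arrays left out, 0 members were called positive as well.

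For Fos the correlation between tissues was 0.04 (permutation p = 0.729, 95% interval -0.18 to 0.25, Spearman 0.02 with permutation p = 0.843), and 0.06 without the 2 mice farthest from the median. Dusp1 stood at 0.04 (permutation p = 0.741, interval -0.18 to 0.25, Spearman 0.05 with p = 0.636, 0.03 without 2 mice) and Nr4a1 at 0.04 (permutation p = 0.695, interval -0.18 to 0.25, Spearman 0.06 with p = 0.623, 0.06 without 2 mice). Fosb was at -0.04 (permutation p = 0.736, interval -0.25 to 0.18, Spearman -0.07 with p = 0.551, -0.11 without 2 mice). These 4 genes, among the most variable within a tissue, had intervals that here reach no higher than 0.25. Within batches 1 and 4 the upper limit was 0.31 for Fos and for Dusp1, the highest of the alternatives run. The most negative was Jun, at -0.23 (permutation p = 0.0377, adjusted p = 0.219 over all genes, Spearman -0.19 with p = 0.0846, -0.20 without 2 mice). The highest was Egr2, at 0.20 (permutation p = 0.0726, adjusted p = 0.315, Spearman 0.16 with p = 0.157, 0.21 without 2 mice). Egr2 stood at 0.24 with shifted arrays (permutation p = 0.0305) and at 0.23 with anagen mice added (permutation p = 0.0267). In the other alternatives its permutation p stayed above 0.05, and after adjustment over all genes it was called in none. Atf3, Egr1, Junb and Ier2 lay between -0.17 and -0.12, with permutation p from 0.125 to 0.279.

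**Figure D4:**
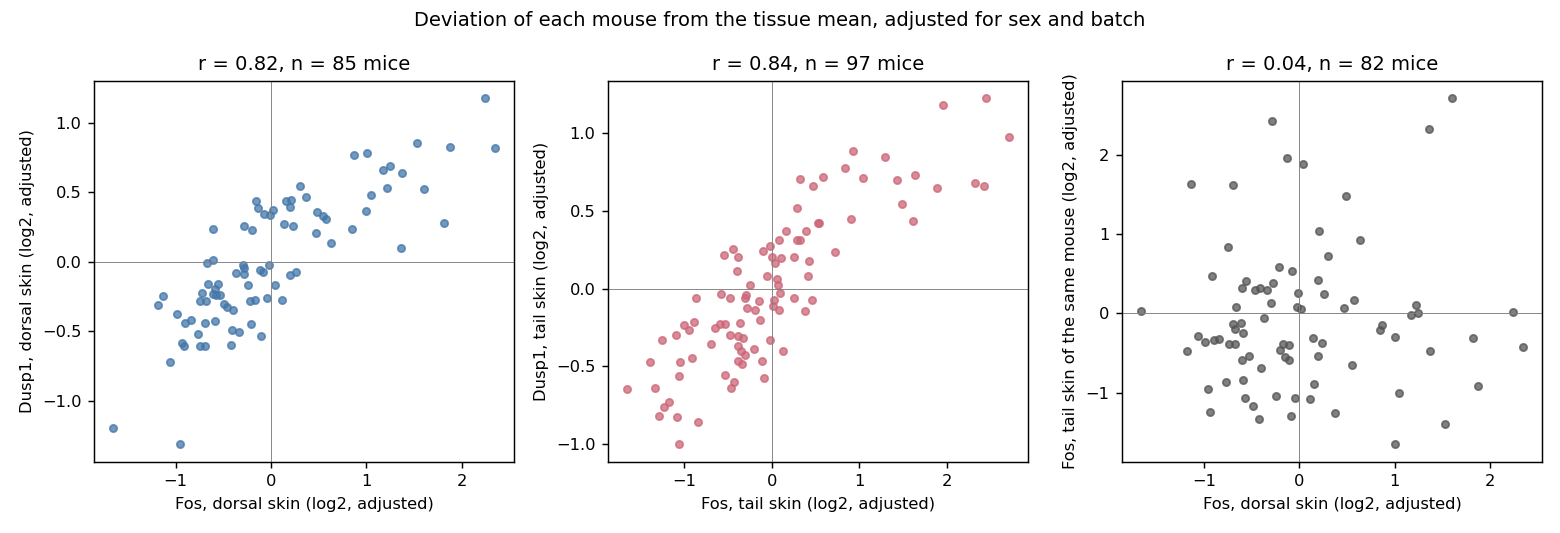
Each point is a mouse, placed by its deviation from the tissue mean in log2 units after adjustment for sex and batch: Fos against Dusp1 in dorsal skin (85 mice), Fos against Dusp1 in tail skin (97 mice), and Fos in dorsal against Fos in tail skin (82 mice). The first 2 panels form a rising band (r = 0.82 and 0.84), and the third is a cloud (r = 0.04).

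The ranks of single mice differed between the tissues. Mouse 1049 had the highest mean of the standardized members in dorsal skin and ranked 24 of 82 in tail skin, with Fos at 8.79 and 7.07. Mouse 1077 ranked 3 in dorsal and 82, the last, in tail skin, with Fos at 8.08 and 5.66. Mouse 1051 ranked first in tail skin and 28 in dorsal skin, with Fos at 9.77 and 8.16. Of the 10 highest mice in each tissue 1 was shared, mouse 1061 (ranks 5 and 7), and of the 10 lowest 0 were.

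The same mice did correlate between tissues in other genes. Of 12 circadian clock genes 8 were called positive, with a median correlation of 0.50. Arntl, the activator of the clock, stood at 0.63, Nr1d2 at 0.57, Per3 at 0.56 and Npas2 at 0.54 (adjusted p = 3.19e-05 for each, from random pairings of mice and the smallest they gave). Of 11 glucocorticoid targets 6 were called, with a median of 0.35, led by Tsc22d3 (0.68) and Klf9 (0.61, adjusted p = 3.19e-05 for both). Per1, a clock gene and a glucocorticoid target, stood at 0.52. Of the 39 other early response genes 6 were called, led by Btg2 (0.44, adjusted p = 0.00127), Maff (0.38) and Ccn1 (0.37), with a list median of 0.11, and 5 were without the 5 arrays least like their group. Ccn1 thus correlated between tissues and followed Fos within each. Heat shock genes had 2 of 9 called, Hspa5 (0.41) and Hsph1 (0.33), but 1 without those 5 arrays and 0 with shifted arrays. The upstream factors lay between -0.17 and 0.29 and the cell type markers between -0.18 and 0.30, with 0 called in each.

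**Figure D5:**
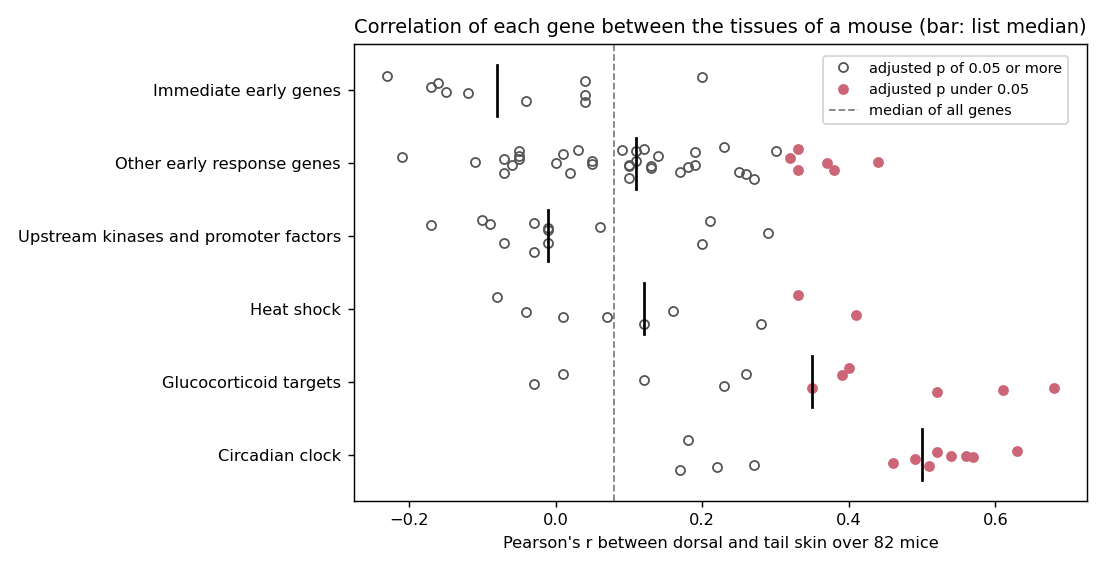
Pearson correlation of each gene between dorsal and tail skin over 82 mice, by gene list; filled points have an adjusted p under 0.05 over all genes, the bar is the list median and the dashed line the median of all genes (0.08). The immediate early genes lie between -0.23 and 0.20 with none filled, and the clock genes and glucocorticoid targets reach 0.63 and 0.68.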

How the data were processed

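Skin RNA (1 ug, biotin labelled) of 100 mice was measured on arrays of dorsal and tail skin. What the authors deposited is log2 expression, made with RMA (background correction, normalization and summary of probes), per the submitters' processing notes, and its version is not given in the sources used here. Of 35556 probe sets, 21218 named 1 gene, 1881 several and 12457 none; for 1386 genes with several probe sets the one with the highest mean was kept, leaving 18820 genes, with no filter on low values. The members and lists were chosen with earlier results of these data known. Named genes are the 10 members, up to 4 called genes of each list with the largest change, and the 8 genes most like the member mean per tissue.

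Differences, interactions and slopes on a member were fitted in R 4.3.3 with limma 3.58.1 (sex as covariate, and batch within tissue except between tail and dorsal skin) and adjusted by Benjamini-Hochberg over all genes. The fits were tested on simulated data. Correlations used values adjusted for sex and batch, with two-sided permutation tests of 100000 resamples, and adjusted p-values between tissues came from 100 random pairings of mice (Python 3.11.15, numpy 2.4.6, pandas 2.3.3, scipy 1.17.1, matplotlib 3.10.9). Intervals of correlations are 95% Fisher intervals. The number of arrays limits the precision. The mouse number pairs the tissues: the deviations of a mouse's 2 arrays correlated at a median of 0.143 over 82 mice, against 0.001 for other mice, and for 18 tails the best match was the back of the same animal. Alternatives changed the scaling, pairing, probe sets, low-value filter, batches, sex term and hair cycle, and left out 5 arrays.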

Additional observations from a re-analysis of the deposited data

Results flagged for a closer look

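The slope of one immediate early gene on another differed between tail and non-anagen dorsal skin in 11 of 90 ordered pairs, by an interaction term in limma adjusted over all genes, in a comparison added after the data had been seen. All 11 were steeper in tail skin, and 9 involved Nr4a1. Over all genes called, more had a lower than a higher slope in tail skin with most of these covariates. A lower slope can be flatter or more strongly negative in tail skin, and these were not separated. With Fos 148 were lower and 83 higher in tail skin, with Egr1 1519 and 415, and with Dusp1 1840 and 907. With Ier2 the numbers were 146 and 97, and with Nr4a1 857 and 206. Few were called with Fosb (0 and 4), Junb (1 and 9) and Atf3 (3 and 3). Slopes are log2 units of the first gene per log2 unit of the second, tail minus dorsal. Nr4a1 was steeper on Fos by 0.39 (limma adjusted p = 0.0224), on Fosb by 0.37 (0.0105), on Junb by 2.06 (0.00116), on Egr1 by 1.08 (0.000668), on Atf3 by 0.51 (0.0168) and on Dusp1 by 0.86 (0.000335). On Nr4a1 as the covariate, Fosb was steeper by 0.70 (limma adjusted p = 0.003), Atf3 by 0.38 (0.0407) and Junb by 0.22 (0.00661). The other 2 were Atf3 on Egr1, by 0.70 (limma adjusted p = 0.014), and Fos on Ier2, by 1.63 (0.0411). Fos on Ier2 was not called within batches 1 and 4 (1.62, limma adjusted p = 0.0554), and Atf3 on Nr4a1 not without the 5 arrays least like their group (0.34, limma adjusted p = 0.0799).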

How the results depend on the processing

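Scaling had the most effect. The single member higher by at least 1 in tail skin, Fosb, fell short with arrays shifted to the same median (0 members) and after quantile normalization (0 members). The difference of Jun, not called as deposited, became -0.20 and -0.24 under these and was called lower. That of Egr1 was called higher as deposited and not called under either, with -0.02 after quantile normalization. The shift to the same median moves every gene of an array by the same amount, so its effect was not particular to Jun and Egr1. Which scaling gives the true difference of these genes was not tested. Over all genes the split was 8222 higher and 8167 lower as deposited, 5481 and 11308 with shifted arrays. Genes rising with Fos numbered 13 in dorsal and 68 in tail skin, 7 and 1608 with shifted arrays, and 7 and 215 after quantile normalization. The slopes differing between tissues numbered 11, and 17 with shifted arrays. With the replicate block (mouse as a random block, or differences within mice) 7 members were higher and 2 lower, 1 by at least 1, and the block changed no member's call. Of the alternative values of results that answer a comparison, 2 moved, those of 0 members above, and 178 did not. Small changes of a count were held as not moved. With shifted arrays, members higher in tail skin went from 7 to 6 and members lower from 2 to 3. Members higher in anagen dorsal skin went from 3 to 2. A median correlation was held as not moved where it shifted by less than the SD over pairs. The number of arrays, the 14 anagen ones above all, limits the precision.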

Other observations

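Outside the 10 genes, the largest changes of early response genes in anagen dorsal skin were those of the MAP kinase phosphatases Dusp2 (0.55) and Dusp6 (0.41), the orphan receptor Nr4a2 (-0.40) and Gadd45g (0.39), called by limma at an adjusted p under 0.05. Of 39 genes 6 were higher and 3 lower, beside shares of 5.56% (higher) and 6.16% (lower) over all genes. Of 12 clock genes 1 was higher and 5 were lower in anagen. In tail against non-anagen dorsal skin 10 of the 12 were higher and 1 lower, with Cry1 at 1.29 (43.7% and 43.4% over all genes). With arrays shifted to the same median 8 were higher and 1 lower, where 5481 of 18820 genes were called higher and 11308 lower. Of 9 heat shock genes 4 were higher and 4 lower in tail skin, with Bag3 at 1.01 and Hsph1 at -1.03. With shifted arrays, where most genes were lower, 1 was higher and 5 lower, and 0 were higher by at least 1. Of 11 glucocorticoid targets 3 were higher and 5 lower, and 0 and 9 with shifted arrays, with Pdk4 and Zbtb16 lower by more than 1 (-1.19 and -1.07).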
